A study of Mus musculus with 71 samples.

Results

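Gpnmb, Atp6v0d2, Colec12 and the MiT/TFE transcription factors Mitf, Tfec, Tfeb and Tfe3 were followed through bulk RNA-seq of sorted mouse microglia from 6 disease models. These 7 genes were selected on their own levels in the same tables, as log2(TPM + 1) compared between the groups of each table, out of 55413 gene symbols listed in every table. Their levels and differences below are therefore a description of these libraries and not an independent test. TPM is a level scaled by transcript length and by the total of its library.

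Each of the 67 libraries was made from 2000 microglia sorted from mice heterozygous for Spp1-GFP, a reporter of the osteopontin gene Spp1, or from wild type controls. GFP-positive (GFP+) and GFP-negative (GFP-) cells came from the same kind of mouse, so both carry the reporter. Cuprizone, a copper chelator in the diet that strips myelin, was fed for 5 weeks (3 GFP+, 3 GFP- and 4 wild type control libraries). CT2a is a mouse glioma line that had been inoculated 21 days before (4, 4 and 4). Experimental autoimmune encephalomyelitis (EAE) mice had recovered to clinical scores of 1 to 2 (3, 3 and 3). These 3 models and their controls were 8 to 10 weeks old. The 5xFAD mice, heterozygous for transgenes that drive amyloid deposition from neurons, were 7 months old like their controls (4, 4 and 4). Strokes were induced on postnatal day 6 or 28 (P6 and P28 strokes) and tissue was taken on day 9 or 35, with the contralateral cortex of Spp1-GFP mice as the comparison (4, 4 and 4 each). The labels mark the contralateral libraries as GFP-negative too. GFP+ and contralateral libraries are therefore unlike in side and in gate, which cannot be told apart, while GFP- and contralateral libraries share the gate. By Xist and Y-linked genes, controls 3 and 4 of cuprizone were from females, while all its GFP+ and GFP- libraries were from males, and each P6 group had males as libraries 1 and 2 and females as 3 and 4. All 5xFAD libraries were from females, and all glioma, EAE and P28 stroke libraries were from males. Between 5xFAD and those models sex and model cannot be told apart. In the 4 models with wild type controls, a GFP group and its controls are unlike in disease, in carrying the reporter and in the gate, and these cannot be told apart.

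The MiT/TFE proteins are helix-loop-helix factors that bind DNA as dimers and turn on genes of lysosomes and autophagy. The kinase complex mTORC1 at the lysosome surface phosphorylates Tfeb and Tfe3 and holds them in the cytoplasm, so their activity is set mainly by location, which transcript levels do not show. Mitf is known from melanocytes and osteoclasts, and Tfec from macrophages. Gpnmb encodes a transmembrane glycoprotein of lysosomes and the cell surface, is a known Mitf target in pigment cells and osteoclasts, and marks lipid-laden and disease-associated microglia. Atp6v0d2 encodes a d subunit of the proton pump of lysosomes (V-ATPase) that is typical of osteoclasts and macrophages. Colec12 encodes a scavenger receptor with a collagen-like stalk and a C-type lectin domain.

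The promoters of Gpnmb, the member with the highest difference of GFP+ from GFP- cells in 4 of 6 models, and of the factor with the most uneven levels between models, Tfec, are shown from RefSeq on GRCm38.p6 as the 250 bases before the start, read 5′ to 3′ on the gene's own strand. Gpnmb is chr6:49036268-49036517 on the plus strand and Tfec chr6:16898442-16898691 on the minus strand, and capitals mark an E-box core (CANNTG), the general site of helix-loop-helix factors.
Gpnmb promoter: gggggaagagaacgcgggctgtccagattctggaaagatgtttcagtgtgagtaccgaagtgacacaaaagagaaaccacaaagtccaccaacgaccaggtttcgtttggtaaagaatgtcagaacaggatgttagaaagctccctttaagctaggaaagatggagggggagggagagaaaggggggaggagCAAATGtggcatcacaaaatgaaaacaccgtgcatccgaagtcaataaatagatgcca
Tfec promoter: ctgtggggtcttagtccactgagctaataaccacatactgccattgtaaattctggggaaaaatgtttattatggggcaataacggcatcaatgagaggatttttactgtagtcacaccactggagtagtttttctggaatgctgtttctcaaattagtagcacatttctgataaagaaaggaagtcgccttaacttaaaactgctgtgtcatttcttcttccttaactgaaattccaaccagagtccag
The window of Gpnmb holds 1 E-box core and 47.2% G or C, and that of Tfec 0 cores and 39.2%. RefSeq gave windows for 5 of the 7 genes (10 windows, since some have several starts), without Atp6v0d2 and Colec12. Searched on both strands, the palindrome CACGTG was in 0 of these 10 windows against 6.02% of all 32851 promoter windows, TCATGTG in 0 against 3.25%, and TGANTCA, a site of AP-1, in 0 against 6.75%. The E-box core, which also covers CACGTG, was in 4 of 10 against 66.2%. These are matches of letters in this window only.

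By the GENCODE M21 annotation of GRCm38, all 7 are protein-coding. Gpnmb (ENSMUSG00000029816.10) lies on chromosome 6 from 49036546 to 49070929 on the plus strand. Tfec (ENSMUSG00000029553.10, 16833373 to 16898441, minus strand) and Mitf (ENSMUSG00000035158.15, 97807052 to 98021349, plus strand) are on the same chromosome. Atp6v0d2 (ENSMUSG00000028238.6) is on chromosome 4 from 19876841 to 19922605 (minus), Colec12 (ENSMUSG00000036103.9) on chromosome 18 from 9707595 to 9882644 (plus), Tfeb (ENSMUSG00000023990.18) on chromosome 17 from 47737030 to 47792419 (plus) and Tfe3 (ENSMUSG00000000134.17) on chromosome X from 7762560 to 7775202 (plus).

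Spp1, the gene behind the gate, stood at 224 to 3867 TPM over the GFP+ libraries of all models, at 0 to 129.9 TPM over GFP- and at 0 to 57.4 TPM over control or contralateral libraries. None of the 10 microglia markers was at 0 throughout a group, and their sum was lower in GFP+ than in GFP- libraries, without overlap, after cuprizone, in EAE, in 5xFAD and in the P28 stroke. In glioma the 10 markers of monocyte-derived cells, none at 0 throughout a group, summed to 1170 to 3094 TPM in GFP+, 2626 to 5962 in GFP- and 81.4 to 275 TPM in control libraries. The microglia markers there summed to 3295 to 7697 TPM in GFP+, 6028 to 17083 in GFP- and 37954 to 44405 TPM in control libraries. The part of these cells in the glioma values below was not tested, and in bulk samples fewer cells of a type and less RNA per cell cannot be told apart. Differences are means of log2(TPM + 1) from limma with their standard error (SE), which understates changes of genes at low TPM, and "called" means an adjusted p under 0.05 over all genes tested in that table. Where most genes shift, values are also given after median-of-ratios rescaling, which centres the bulk of genes. The labels do not say that libraries of a group came from separate mice, so p-values measure the spread between these libraries, which may be technical.

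Gpnmb was high in GFP+ cells of every model and its libraries never overlapped with GFP- ones. After cuprizone it was at 17.0, 25.4 and 33.0 TPM in GFP+ libraries, at 0.58, 1.18 and 0 TPM in GFP- libraries and at 0 to 1.02 TPM in the 4 controls. In glioma it was at 165, 114, 143 and 129.6 TPM in GFP+, at 41.1, 36.7, 42.1 and 21.4 TPM in GFP- and at 0 to 0.24 TPM in control libraries. The glioma GFP- cells therefore lay between the other groups, with no overlap on either side. In EAE the levels were 129.8, 140.1 and 169 TPM in GFP+ and 17.2, 14.1 and 30.7 TPM in GFP- libraries, and the 3 controls were listed at 0. In 5xFAD they were 259, 158, 111 and 159.8 TPM in GFP+, 22.9, 8.67, 8.43 and 28.5 TPM in GFP- and 0 to 0.9 TPM in control libraries. Here too the GFP- cells stood between, while after cuprizone they overlapped with the controls.

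The strokes differed from each other in the level of the contralateral side. In the P6 stroke Gpnmb was at 119, 69.0, 143 and 106 TPM in GFP+, 24.4, 31.2, 31.1 and 18.2 TPM in GFP- and 13.6, 8.14, 22.4 and 13.6 TPM in contralateral libraries. The GFP- and contralateral libraries overlapped, and the contralateral pups had more Gpnmb than any wild type control of the other models, with the tables normalised separately. Early postnatal microglia of white matter are known to make Gpnmb. The contralateral pups and those controls are unlike in age, in stroke, in carrying the reporter and in the gate. These cannot be told apart, and the part of age was not tested. In the P28 stroke it was at 14.0, 34.6, 25.4 and 22.0 TPM in GFP+, 0.65, 1.88, 1.51 and 0 TPM in GFP- and 0 to 0.25 TPM in contralateral libraries.

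The difference of GFP+ from GFP- cells for Gpnmb was 4.07 on the log2 scale after cuprizone (SE 0.46), 1.97 in glioma (SE 0.21) and 2.83 in EAE (SE 0.28). For 5xFAD the value was 3.38 (SE 0.40), for the P6 stroke 2.00 (SE 0.28) and for the P28 stroke 3.68 (SE 0.35). Ranked from the most positive difference, Gpnmb was gene 10 of 12877 after cuprizone, 25 of 14461 in glioma and 4 of 13513 in EAE. It was gene 3 of 12532 in 5xFAD, 20 of 13136 in the P6 and 14 of 14303 in the P28 stroke. All 6 differences were called with each library left out in turn and after rescaling (2.13 to 4.29). Gpnmb was selected on these contrasts, so its ranks and calls are a description and no support. After cuprizone and in the P28 stroke it would not have entered the test without its GFP+ libraries. The GFP- cells differed from controls by 5.06 in glioma (SE 0.21) and 3.70 in 5xFAD (SE 0.40), both called, and by 0.26 after cuprizone (SE 0.43). In EAE, where the controls were listed at 0, they differed by 4.36 (SE 0.28), also called. Against the contralateral side they differed by 0.86 in the P6 (SE 0.28) and 0.76 in the P28 stroke (SE 0.35), neither called.

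By mean level in GFP+ cells, 5xFAD (172 ± 62.0 TPM, SD, n = 4) came first, then EAE (146 ± 20.5, n = 3), glioma (138 ± 21.6, n = 4) and the P6 stroke (109 ± 30.8, n = 4). Cuprizone (25.2 ± 8.00, n = 3) and the P28 stroke (24.0 ± 8.55, n = 4) followed. Neighbours in this order differed by less than the larger of their SDs except the P6 stroke and cuprizone, and levels across tables were not tested.

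Atp6v0d2 was close to silent outside GFP+ cells. After cuprizone it was at 4.18, 6.28 and 5.23 TPM in GFP+ libraries, and all 3 GFP- and all 4 control libraries were listed at 0. In 5xFAD it was at 16.8, 12.7, 6.08 and 13.2 TPM in GFP+ and at 1.18, 0.16, 0 and 0 TPM in GFP- libraries, with 4 controls at 0. This was its highest level, and the difference of GFP+ from GFP- cells was 3.31 (SE 0.41). In 5xFAD and after cuprizone the gene would not have entered the test without its GFP+ libraries. In glioma it was at 0.52, 1.01, 3.36 and 4.22 TPM in GFP+ libraries, at 1.61 TPM in 1 of 4 GFP- libraries and otherwise listed at 0. The glioma groups of GFP+ and GFP- overlapped, with a difference of 1.18 (SE 0.43) that was not called.

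In 3 tables Atp6v0d2 did not reach 1 TPM in enough libraries to be tested. EAE had 0.74, 0.12 and 0.86 TPM in GFP+ libraries with the other 6 at 0. The P6 stroke had 1.56, 0.74, 2.44 and 3.08 TPM in GFP+, 0.29 TPM in 1 of 4 GFP- and 0 in all contralateral libraries. The P6 groups of GFP+ and GFP- did not overlap, although the gene was not tested with all libraries. The P28 stroke had 0.3, 0.56, 0.27 and 0.16 TPM in GFP+, 0.56 TPM in 1 of 4 GFP- and 0.18 TPM in 1 of 4 contralateral libraries, so these groups overlapped. By mean GFP+ level 5xFAD (12.2 ± 4.45 TPM, SD, n = 4) and cuprizone (5.23 ± 1.05, n = 3) led, and glioma (2.28 ± 1.79, n = 4), the P6 stroke (1.96 ± 1.02, n = 4), EAE (0.573 ± 0.397, n = 3) and the P28 stroke (0.323 ± 0.169, n = 4) followed. Glioma and the P6 stroke differed by less than the larger of their SDs, as did EAE and the P28 stroke.

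Colec12 was higher in GFP+ than in GFP- libraries of all 6 models with no overlap. After cuprizone it was at 16.2, 12.4 and 7.66 TPM in GFP+, 0, 3.68 and 0.51 TPM in GFP- and 5.74, 6.07, 7.14 and 3.77 TPM in control libraries. Cuprizone was the one model in which the controls stood above GFP- cells, without overlap. In glioma it was at 19.6, 4.66, 4.28 and 13.3 TPM in GFP+, 2.74, 0.74, 2.12 and 0.32 TPM in GFP- and 0, 1.33, 0.37 and 1.82 TPM in control libraries. In EAE it was at 17.2, 23.0 and 29.7 TPM in GFP+ and 5.71, 2.17 and 3.9 TPM in GFP- libraries, with the 3 controls listed at 0. The EAE levels were thus ordered in 3 groups without overlap.

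In 5xFAD Colec12 was at 32.5, 7.53, 10.1 and 8.83 TPM in GFP+, 1.09, 2.51, 0.81 and 3.09 TPM in GFP- and 0, 0, 0 and 0.55 TPM in control libraries. After the P6 stroke it was at 9.28, 7.89, 17.7 and 6.66 TPM in GFP+, 1.04, 1.01, 3.62 and 0.84 TPM in GFP- and 1.16, 0.74, 2.29 and 0.09 TPM in contralateral libraries. The GFP- and contralateral pups overlapped. After the P28 stroke it was at 2.01, 3.22, 2.7 and 1.8 TPM in GFP+ and at most 0.1 TPM in GFP- libraries, and the contralateral ones were listed at 0.

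On the log2(TPM + 1) scale alone, differences of GFP+ from GFP- cells for Colec12 lay closer together than those of Gpnmb. They were 2.71 after cuprizone (SE 0.52), 2.09 in glioma (SE 0.51) and 2.34 in EAE (SE 0.34). For 5xFAD the value was 2.29 (SE 0.47), for the P6 stroke 2.14 (SE 0.40) and for the P28 stroke 1.71 (SE 0.26), all called. The ratio of mean TPM was 64.9 in the P28 stroke and 5.93 to 8.64 elsewhere, against 3.90 to 42.9 for Gpnmb. With a pseudocount of 0.1 the P28 difference of Colec12 was 4.23. In 5xFAD and the P28 stroke Colec12 would not have entered the test without its GFP+ libraries. It was selected on these contrasts, so its calls are no support. The call in glioma was lost without GFP+ library 1 (1.73), GFP+ library 4 (1.90), GFP- library 2 (1.96) or GFP- library 4 (1.83). That in EAE was lost without GFP+ library 2 (2.33), GFP+ library 3 (2.15) or GFP- library 3 (2.36), and that in the P6 stroke without GFP+ library 3 (1.87), GFP- library 1 (2.05) or GFP- library 2 (2.05). The glioma call was also lost with the replicate block (2.09) and with a pseudocount of 0.1 (2.82), and the EAE call with that pseudocount (2.61). Fibroblasts, which also make Colec12, had 8 markers whose sum was at most 1.39 TPM in every group outside glioma. In glioma that sum was 1.66 to 10.8 TPM in GFP+, 0.82 to 15.2 in GFP- and 1.43 to 12.7 TPM in control libraries, with Lum and Dpt at 0. The 10 endothelial and mural markers summed to lower values in GFP+ than in GFP- libraries after cuprizone (5.87 to 10.9 against 12.5 to 13.9 TPM), in 5xFAD (7.3 to 9.64 against 11.1 to 22.5 TPM) and in the P28 stroke (8.13 to 17.98 against 28.8 to 36.2 TPM). They overlapped in glioma (16.7 to 183 against 32.4 to 84.3 TPM), in EAE (6.65 to 8.65 against 3.45 to 12.99 TPM) and in the P6 stroke (4.11 to 7.32 against 4.99 to 24.8 TPM). The 10 markers of monocyte-derived cells summed to 131 to 138 TPM in GFP+, 112 to 186 in GFP- and 18.4 to 22.4 TPM in control libraries of EAE, with Chil3 at 0 in GFP+ and control libraries. After cuprizone the sums were 40.1 to 53.2 TPM in GFP+, 14.1 to 30.5 in GFP- and 16.8 to 34.9 TPM in control libraries, with Ly6c2, Plac8, Chil3 and S100a4 at 0 in GFP+ ones. The part of these cells in the Colec12 values was not tested.

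**Figure D1:**
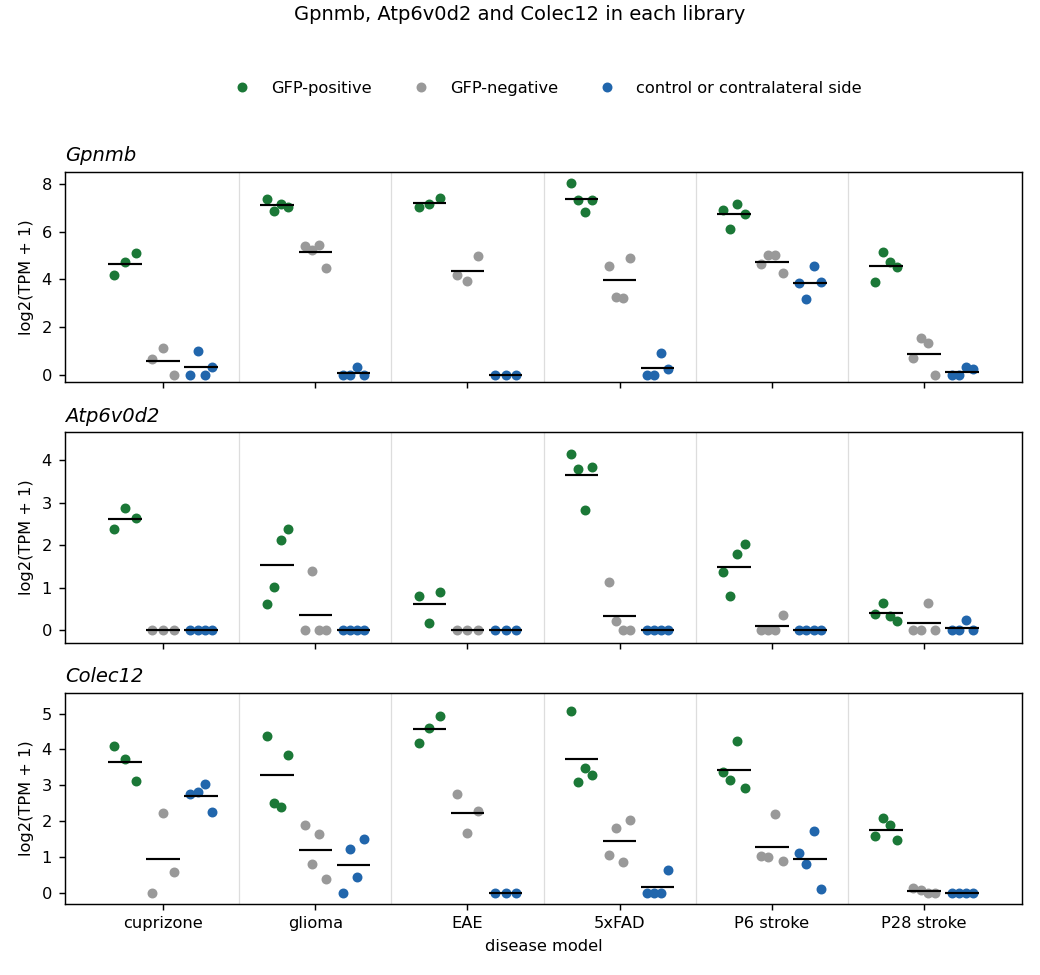
Levels of Gpnmb, Atp6v0d2 and Colec12 in each library as log2(TPM + 1), by disease model, with GFP+ libraries left, GFP- in the middle and control or contralateral libraries right. Lines are group means. Gpnmb and Colec12 of GFP+ libraries lie above GFP- ones in all 6 models, and the Gpnmb of contralateral P6 libraries (8.14 to 22.4 TPM) lies above every other control or contralateral group.

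Among the factors, Mitf was the one with higher levels in GFP+ cells in several models. In the P28 stroke it was at 54.5, 55.7, 68.5 and 56.6 TPM in GFP+, 27.2, 31.4, 46.9 and 33.3 TPM in GFP- and 37.9, 30.0, 41.5 and 39.1 TPM in contralateral libraries. In EAE it was at 43.9, 40.5 and 64.3 TPM in GFP+, 23.0, 16.9 and 33.5 TPM in GFP- and 26.5, 21.4 and 23.3 TPM in control libraries. In both models GFP+ libraries did not overlap with either of the other groups, which overlapped with each other. After cuprizone it was at 8.69, 7.81 and 12.7 TPM in GFP+, 3.83, 3.52 and 4.47 TPM in GFP- and 5.49, 4.62, 7.08 and 9.13 TPM in control libraries. In 5xFAD it was at 8.43, 9.79, 7.51 and 10.7 TPM in GFP+, 5.66, 5.48, 5.58 and 2.36 TPM in GFP- and 4.74, 7.25, 10.5 and 8.63 TPM in control libraries. In these 2 models GFP+ stood above GFP- without overlap but overlapped with the controls, and after cuprizone GFP- lay below every control.

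Glioma ran the other way for Mitf. It was at 8.58, 11.3, 7.83 and 5.5 TPM in GFP+, 14.1, 11.2, 7.34 and 8.76 TPM in GFP- and 12.8, 18.8, 19.8 and 15.5 TPM in control libraries. GFP+ libraries lay below every control. In the P6 stroke it was at 14.3, 6.22, 11.04 and 7.37 TPM in GFP+, 8.68, 7.25, 9.75 and 8.96 TPM in GFP- and 5.34, 7.73, 9.02 and 7.64 TPM in contralateral libraries, and all 3 groups overlapped.

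The difference of GFP+ from GFP- cells for Mitf was called in the P28 stroke (0.77, SE 0.16; 1.10 rescaled). It was 1.10 after cuprizone (SE 0.34; 1.35 and called after rescaling), 1.01 in EAE (SE 0.26) and 0.85 in 5xFAD (SE 0.34), none of them called as deposited. It was -0.29 in glioma (SE 0.24) and 0.09 in the P6 stroke (SE 0.23). Against controls the GFP+ cells were called lower in glioma at -0.95 (SE 0.24), a call lost after rescaling at -0.39. They were called higher in EAE at 1.01 (SE 0.26; 1.46 rescaled), a call lost without GFP+ library 3 (0.81), control 2 (0.94) or control 3 (1.00). Against the contralateral side of the P28 stroke GFP+ cells were called higher at 0.65 (SE 0.16; 1.01 rescaled). The glioma GFP- cells were called lower than controls at -0.66 (SE 0.24), and the call was lost after rescaling (-0.27), without GFP- library 3 (-0.53) or 4 (-0.60), and without control 2 (-0.60), 3 (-0.58) or 4 (-0.69).

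Tfec was expressed unevenly between models and followed the model more than the gate. In glioma it was at 2.5, 15.3, 25.6 and 20.1 TPM in GFP+, 5.42, 6.44, 12.4 and 8.42 TPM in GFP- and 0.15, 0, 1.49 and 1.53 TPM in control libraries. Both tumour groups lay above the controls and overlapped with each other. The differences from controls were 3.03 in GFP+ (SE 0.56) and 2.42 in GFP- cells (SE 0.56), called also after rescaling (3.37 and 2.59), and the markers of monocyte-derived cells given above were higher in the same libraries. After the P6 stroke it was at 12.6, 8.52, 11.4 and 13.9 TPM in GFP+, 9.43, 9.71, 9.55 and 13.7 TPM in GFP- and 11.8, 10.8, 10.3 and 7.9 TPM in contralateral libraries. These 3 groups overlapped, with a difference of GFP+ from GFP- cells of 0.12 (SE 0.19).

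Elsewhere Tfec was near the floor of detection. After cuprizone it was at 0.59, 1.35 and 0.24 TPM in GFP+, at 1.02 TPM in 1 of 3 GFP- and at 2.86 TPM in 1 of 4 control libraries, with the others listed at 0. In EAE it was at 2.03, 1.26 and 0.66 TPM in GFP+, 0, 0.77 and 0 TPM in GFP- and 1.54, 0.37 and 0.12 TPM in control libraries. After the P28 stroke it was at 0.68, 0.79, 0.9 and 2.5 TPM in GFP+, 0.1, 1.76, 1.91 and 1.34 TPM in GFP- and 2.58, 0.52, 3.15 and 1.36 TPM in contralateral libraries. Groups overlapped in each of these models, and in 5xFAD the gene was listed at 0 in all but 1 GFP+ library (0.22 TPM). The differences of GFP+ from GFP- cells were 0.40 after cuprizone (SE 0.60), 0.60 in glioma (SE 0.56), 0.89 in EAE (SE 0.43) and -0.01 in the P28 stroke (SE 0.41), none of them called.

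Tfe3 was the most abundant of the factors in TPM, and as deposited it was called lower in GFP+ than in control or contralateral cells of every model but the P6 stroke. In 5xFAD it was at 55.2, 62.3, 44.5 and 52.7 TPM in GFP+, 95.5, 100.9, 95.7 and 102 TPM in GFP- and 124, 173, 184 and 139 TPM in control libraries. The 3 groups were ordered without overlap. In glioma it was at 56.4, 68.6, 60.8 and 51.4 TPM in GFP+, 73.6, 95.1, 80.0 and 70.6 TPM in GFP- and 121, 145, 142 and 139.9 TPM in control libraries. This order, too, was free of overlap. In the P28 stroke it was at 86.3, 104, 100.3 and 122 TPM in GFP+, 155, 130.4, 145 and 159.9 TPM in GFP- and 150.4, 182, 142 and 159 TPM in contralateral libraries, so only the GFP+ libraries stood apart.

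After cuprizone Tfe3 was at 107, 80.4 and 68.1 TPM in GFP+, 144, 122 and 103 TPM in GFP- and 134, 113, 131 and 155 TPM in control libraries. In EAE it was at 96.7, 92.7 and 88.4 TPM in GFP+, 60.2, 100.5 and 87.9 TPM in GFP- and 154, 140.3 and 143 TPM in control libraries. Cuprizone GFP+ and GFP- libraries overlapped, and in EAE both GFP groups lay below the controls. In the P6 stroke it was at 91.0, 82.9, 84.4 and 83.9 TPM in GFP+, 80.9, 77.6, 96.1 and 83.5 TPM in GFP- and 85.9, 107.6, 107 and 92.7 TPM in contralateral libraries, with overlap throughout.

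The difference of GFP+ from GFP- cells for Tfe3 was called in 5xFAD (-0.87, SE 0.15) and in the P28 stroke (-0.52, SE 0.11). Both calls were lost after rescaling, at -0.53 and -0.19. It was -0.54 after cuprizone (SE 0.18; called without GFP+ library 1 at -0.71), -0.42 in glioma (SE 0.12), 0.19 in EAE (SE 0.18) and 0.02 in the P6 stroke (SE 0.10). Against controls, GFP+ cells were called lower at -1.51 in 5xFAD (SE 0.15) and at -1.20 in glioma (SE 0.12), also after rescaling (-0.82 and -0.59). The GFP- cells of glioma were called lower too (-0.78, SE 0.12; -0.36 and called after rescaling). The GFP- cells of EAE (-0.84, SE 0.18) and 5xFAD (-0.63, SE 0.15) were called lower, and both calls were lost after rescaling (-0.30 and -0.29). Further calls were at -0.66 in cuprizone GFP+ (SE 0.17), -0.65 in EAE GFP+ (SE 0.18) and -0.62 in P28 GFP+ cells (SE 0.11), lost after rescaling at -0.33, -0.18 and -0.26. The cuprizone call was also lost without GFP+ library 2 (-0.63) or 3 (-0.51) or with a sex term (-0.55), and the EAE call with any of the 6 libraries left out (-0.68 to -0.61).

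Tfeb, the best-known inducer of lysosomal genes, was lower in TPM than Tfe3 in every library. In 5xFAD it was at 10.3, 7.22, 11.01 and 12.2 TPM in GFP+, 22.1, 20.7, 19.9 and 16.3 TPM in GFP- and 21.7, 28.3, 26.5 and 14.9 TPM in control libraries. The GFP+ libraries lay below all others, with a difference from GFP- cells of -0.90 (SE 0.26). That call was lost after rescaling (-0.58) and with any of the 8 libraries left out (-0.99 to -0.76). In glioma it was at 22.4, 18.6, 20.3 and 12.5 TPM in GFP+, 19.2, 23.6, 22.7 and 17.7 TPM in GFP- and 29.6, 33.6, 32.2 and 29.3 TPM in control libraries. Both tumour groups lay below the controls, at -0.75 in GFP+ (SE 0.17) and -0.57 in GFP- cells (SE 0.17), called as deposited but not after rescaling (-0.17 and -0.16). The 5xFAD GFP+ cells were called lower than controls as well (-1.07, SE 0.26; -0.42 and not called after rescaling).

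In the other models Tfeb ranged from 14.9 to 21.6 TPM in GFP+, 21.2 to 31.4 in GFP- and 24.2 to 33.0 TPM in control libraries after cuprizone. It ranged from 21.1 to 24.7 TPM in GFP+, 11.9 to 28.5 in GFP- and 27.4 to 32.0 TPM in control libraries of EAE. After the P6 stroke the range was 11.5 to 18.1 TPM in GFP+, 9.28 to 13.4 in GFP- and 10.95 to 17.9 TPM in contralateral libraries. For the P28 stroke it was 11.2 to 20.6 TPM in GFP+, 20.9 to 26.6 in GFP- and 14.9 to 21.1 TPM in contralateral libraries. The GFP+ groups overlapped with GFP- ones after cuprizone, in EAE and in the P6 stroke, and lay below them in the P28 stroke. The differences of GFP+ from GFP- cells were -0.54 after cuprizone (SE 0.24), -0.18 in glioma (SE 0.17), 0.17 in EAE (SE 0.28), 0.26 in the P6 (SE 0.18) and -0.47 in the P28 stroke (SE 0.18), none called with all libraries. The P28 value was called without GFP+ library 4 (-0.56). Against controls the cuprizone GFP+ value of -0.67 (SE 0.22) was called without control 4 (-0.77), and the EAE GFP- value of -0.52 (SE 0.28) without GFP- library 2 (-0.78). After rescaling the sign of 3 further Tfeb differences turned, EAE GFP+ from control (-0.36, to 0.10), 5xFAD GFP- from control (-0.17, to 0.16) and P28 GFP+ from contralateral (-0.11, to 0.23), none of them called.

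**Figure D2:**
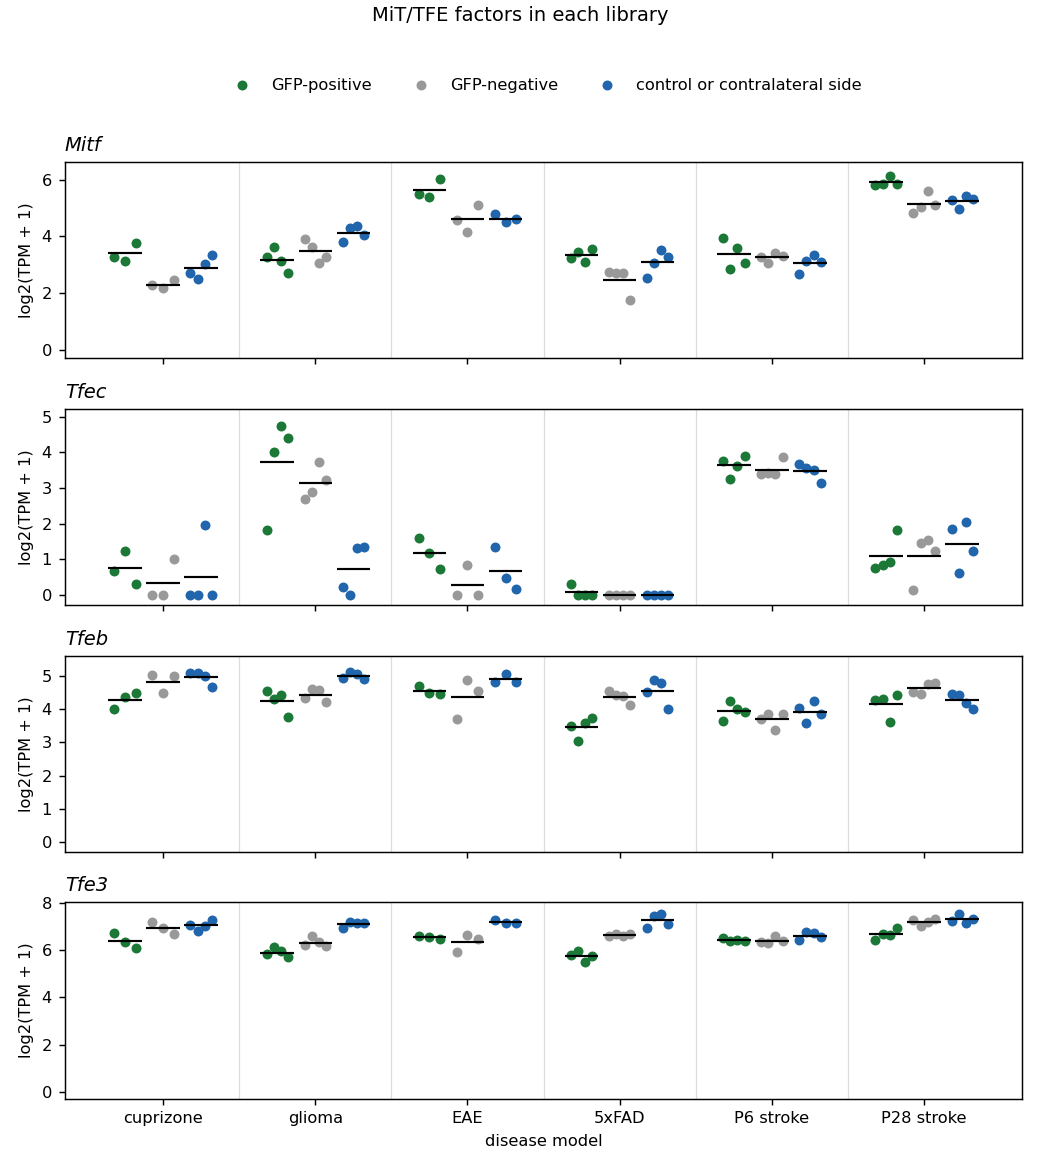
Levels of Mitf, Tfec, Tfeb and Tfe3 in each library as log2(TPM + 1), by disease model, with GFP+ libraries left, GFP- in the middle and control or contralateral libraries right. Lines are group means. Mitf of GFP+ libraries is highest in the EAE (40.5 to 64.3 TPM) and P28 stroke (54.5 to 68.5 TPM) tables, and Tfec is above 5 TPM only in glioma and P6 stroke libraries. Tfe3 of GFP+ libraries lies below the control or contralateral libraries in every model but the P6 stroke.

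Counted together, the members called in GFP+ against GFP- cells were 3 higher of 7 tested after cuprizone (Gpnmb, Atp6v0d2 and Colec12), where limma called 2.7% of all tested genes higher and 7.49% lower. They were 2 higher of 7 in glioma (0.927% of all genes higher, 5.75% lower) and 2 higher of 6 in EAE (0.252% and 0.437%). In 5xFAD 3 were higher and 2 lower of 6 (1.02% and 7.14%), in the P6 stroke 2 were higher of 6 (1.03% and 2.33%), and in the P28 stroke 3 were higher and 1 lower of 6 (5.86% and 23.2%). In GFP+ cells against controls it was 2 higher and 1 lower after cuprizone (4.5% and 13.7% of all genes), 4 and 3 in glioma (17.7% and 45.9%), 3 and 1 in EAE (6.91% and 22.9%) and 3 and 2 in 5xFAD (6.11% and 33.9%). Against the contralateral side it was 2 higher in the P6 stroke (0.556% and 2.56%) and 3 higher and 1 lower in the P28 stroke (7.56% and 28.4%). In GFP- cells it was 2 higher and 3 lower in glioma (16% and 36.8%), 2 and 1 in EAE (5.88% and 24.5%) and 1 and 1 in 5xFAD (3.57% and 9.12%). For GFP- cells 0 were called by limma after cuprizone (0.148% and 0.0155% of all genes, 1 member at an unadjusted p under 0.05), in the P6 stroke (0.0914% and 0.183%, 2 members) and in the P28 stroke (0.217% and 0.021%, 1 member). Without their GFP+ libraries Gpnmb (cuprizone and the P28 stroke), Atp6v0d2 (cuprizone, glioma and 5xFAD), Colec12 (5xFAD and the P28 stroke) and Tfec (cuprizone and EAE) would not have reached the level needed for the test. As the members were also selected on these contrasts, nothing is read from these counts, and comparisons of 1 table share their libraries. The median over all genes of GFP+ against GFP- was -0.25 after cuprizone, -0.15 in glioma, 0.05 in EAE, -0.29 in 5xFAD, -0.12 in the P6 and -0.30 in the P28 stroke.

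**Figure D3:**
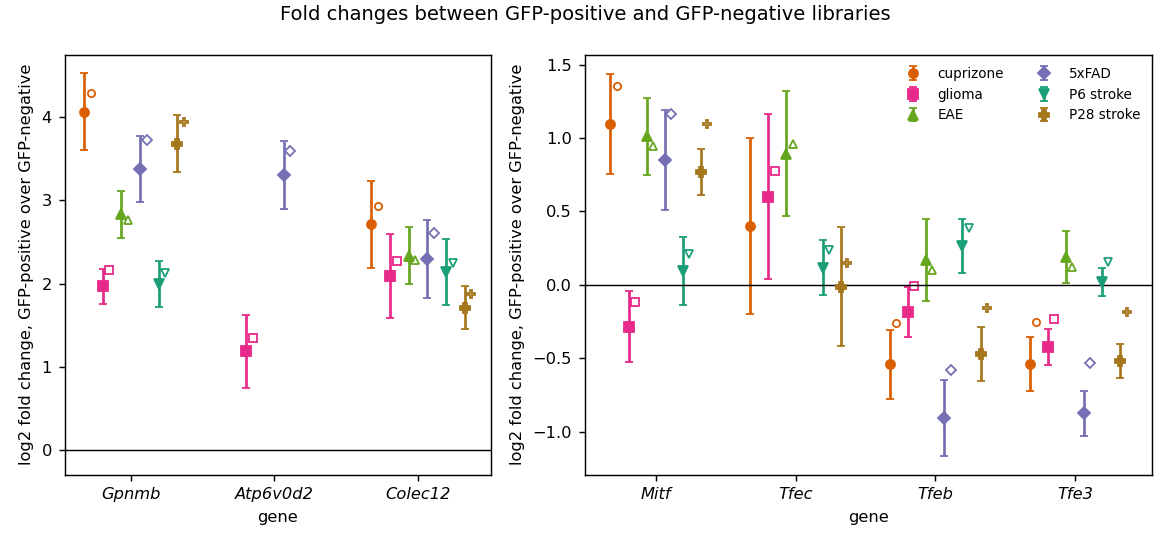
Difference of GFP+ from GFP- libraries on the log2(TPM + 1) scale for the 7 genes in each model. Filled points are values as deposited with bars of 1 SE, open points are values after median-of-ratios rescaling, and a gene that was not tested or was listed at 0 in all GFP- libraries has no point. The panels have different scales. Gpnmb lies between 1.97 and 4.07 and Colec12 between 1.71 and 2.71, whereas Tfeb and Tfe3 lie between -0.90 and 0.26.

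The machinery around the members was counted over 105 genes in 5 lists, namely other V-ATPase subunits, the mTORC1 and phosphatase control of MiT/TFE factors, lysosomal and osteoclast targets, scavenger receptors, and proteins that bind or shed Gpnmb. In GFP+ against GFP- cells of the P28 stroke 18 of 84 tested genes rose and 16 fell, and after rescaling 34 and 2 (9.97% and 5.7% of all genes). After cuprizone 9 of 86 rose and 9 fell, and after rescaling 21 and 4 (4.22% and 1.91%). In 5xFAD 4 of 85 rose and 14 fell, and after rescaling 15 and 3 (3.28% and 1.93%). The direction of these lists as a whole thus depends on the scaling. In glioma 3 of 88 rose and 3 fell (14 and 3 rescaled, against 2.3% and 2.96% of all genes), in EAE 1 of 85 rose (1 rescaled, the glucosidase Gaa in place of Ctsd, against 0.283% and 0.298%) and in the P6 stroke 5 of 84 rose and 2 fell (9 and 1 rescaled, against 1.74% and 1.1%). The shares of all genes as deposited are those given for the same contrast above, such as 5.86% higher and 23.2% lower in the P28 stroke. The same shares stand beside the counts of each list below.

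Of the lysosomal and osteoclast targets, 5 of 28 rose and 3 fell after cuprizone, 1 of 31 rose and 1 fell in glioma, 1 of 29 rose in EAE, 4 of 29 rose and 3 fell in 5xFAD, 3 of 28 rose in the P6 stroke, and 10 of 28 rose and 5 fell in the P28 stroke. The rescaled counts were 11 up and 1 down for cuprizone, 4 and 1 for glioma, 1 and 0 for EAE, 10 and 1 for 5xFAD, 5 and 0 for P6 and 16 and 0 for P28 strokes. Their median differences as deposited were 0.17, 0.13, 0.33, 0.08, 0.18 and 0.14 in that order. Cd63, a tetraspanin of lysosomes, averaged 1626 ± 90.9 TPM in GFP+ and 768 ± 21.6 TPM in GFP- libraries after cuprizone (SD, n = 3 each; log2 difference 1.08, limma adjusted p = 3.25e-05). After the P28 stroke it averaged 1219 ± 134 TPM in GFP+ and 509.9 ± 32.7 TPM in GFP- libraries (SD, n = 4 each; 1.25, limma adjusted p = 4.83e-06). It also rose in 5xFAD (0.65) and the P6 stroke (0.46).

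The cathepsin protease Ctsb rose after cuprizone (0.79) and in the P28 stroke (1.21), and Ctsd after cuprizone (0.49), in EAE (0.55, limma adjusted p = 0.0218), in 5xFAD (0.44), in the P6 stroke (0.36) and in the P28 stroke (0.58). Ctsd was the one target called in EAE, at 32718 ± 340 TPM in GFP+ and 22429 ± 2542 TPM in GFP- libraries (SD, n = 3 each), and the call was lost after rescaling. The alpha-galactosidase Gla rose in glioma (0.99) and the P28 stroke (1.74). The other glioma call was the cathepsin Ctsf, which fell by 1.48 there and at -0.54 to -0.53 after cuprizone, in 5xFAD and in the P28 stroke, where those 3 calls were lost after rescaling. Lamp1, a coat glycoprotein of lysosomes, had the largest named rise in the P6 stroke, at 946, 1692, 1947 and 1216 TPM in GFP+ and 212, 318, 226 and 190.1 TPM in GFP- libraries (2.58, limma adjusted p = 0.00328), and also rose in the P28 stroke (1.05). In the same libraries Actb was at 1265 to 4743 TPM in GFP+ and 5336 to 6352 TPM in GFP- libraries, and its part in the Lamp1 value was not tested.

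Among the other V-ATPase subunits 1 of 19 rose and 1 fell after cuprizone (7 and 1 rescaled), 2 of 19 rose in glioma (8 rescaled) and 3 of 19 fell in 5xFAD (3 up and 1 down rescaled). In the P6 stroke 1 of 18 rose (3 rescaled), and in the P28 stroke 2 of 18 rose and 2 fell (9 and 0 rescaled). The proteolipid gene Atp6v0c rose after cuprizone (0.31), in glioma (0.36), in the P6 stroke (0.33) and in the P28 stroke (0.48), also after rescaling (0.46 to 0.81). Atp6v1a, the catalytic subunit, rose in glioma (0.45) and Atp6v0e in the P28 stroke (0.50). Atp6v0a2, one of the a subunits that place the pump, fell by 1.45 after cuprizone and by 1.45 in 5xFAD, and at -1.16 and -1.12 after rescaling. Tcirg1, the a subunit of osteoclasts, and Atp6ap2 fell in 5xFAD (-0.39 and -0.37) but were at -0.04 and -0.02 after rescaling. Atp6v1h fell in the P28 stroke (-0.46; -0.13 rescaled). The d1 gene Atp6v0d1, the widely expressed counterpart of Atp6v0d2 and named here after its values were seen, was at 51.2 ± 4.80 TPM in GFP+ and 47.8 ± 3.93 TPM in GFP- libraries of the P28 stroke (SD, n = 4 each), a difference of 0.10 that was not called as deposited and was 0.43 and called after rescaling. The EAE table had 0 of 18 subunits called by limma, with 5 at an unadjusted p under 0.05.

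Among genes that hold the factors in the cytoplasm or release them, 3 of 24 fell after cuprizone (1 rescaled), where 7.49% of all genes fell as deposited. It was 2 of 23 in glioma (1 up and 2 down rescaled; 5.75% of all genes), 5 of 24 in 5xFAD (1 up rescaled; 7.14%) and 7 of 23 in the P28 stroke (2 up and 1 down rescaled; 23.2%). After the P6 stroke 1 of 23 rose and 2 fell (1 and 1 rescaled; 1.03% and 2.33% of all genes), and in EAE limma called 0 of 24, with 3 at an unadjusted p under 0.05. Rptor, the scaffold of mTORC1, averaged 15.8 ± 1.86 TPM in GFP+ and 32.7 ± 2.19 TPM in GFP- libraries after cuprizone (SD, n = 3 each) and fell there (-1.01), in 5xFAD (-0.83), in the P6 stroke (-0.61) and in the P28 stroke (-0.79, limma adjusted p = 0.000145). After rescaling it was at -0.73 after cuprizone and -0.46 in the P28 stroke, both called, and at -0.51 in 5xFAD and -0.49 in the P6 stroke, not called. The kinase Akt1 fell after cuprizone (-0.87), in glioma (-0.75), in 5xFAD (-0.74) and in the P28 stroke (-0.65), and of these the glioma call held after rescaling (-0.56). Gsk3b, a kinase that marks Tfeb for the cytoplasm, fell after cuprizone (-0.57), in 5xFAD (-0.57), in the P6 stroke (-0.80) and in the P28 stroke (-0.60), with the P6 call kept after rescaling (-0.68). Folliculin (Flcn), which lets mTORC1 act on Tfeb and Tfe3, fell in 5xFAD (-0.67; -0.33 and not called after rescaling). The arginine sensor Slc38a9 fell in glioma (-0.81; -0.63 and called after rescaling) and in the P28 stroke (-0.62; -0.29 and not called), and Rheb, the activator of mTORC1, rose in the P6 stroke (0.70; 0.83 rescaled).

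Among the other scavenger receptors, 1 of 8 rose and 1 fell after cuprizone, 1 of 6 fell in 5xFAD and 4 of 8 rose and 1 fell in the P28 stroke. In glioma, EAE and the P6 stroke limma called 0, with 3, 2 and 1 at an unadjusted p under 0.05. The one count that rescaling moved was that of 5xFAD, to 1 up and 1 down. Cxcl16, a transmembrane chemokine that takes up oxidised lipoprotein, rose after cuprizone (1.16) and in the P28 stroke (1.31). Stab1, a receptor of border macrophages too, fell after cuprizone (-1.36), in 5xFAD (-1.65) and in the P28 stroke (-0.81), also after rescaling (-1.30 to -0.48). Cd36 rose in the P28 stroke, at 8.71 ± 3.68 TPM in GFP+ and 0.738 ± 0.687 TPM in GFP- libraries (SD, n = 4 each; 2.47, limma adjusted p = 0.000771). In that table markers of monocyte-derived cells summed to 80.1 to 222 TPM in GFP+, 28.3 to 50.5 in GFP- and 12.2 to 28.3 TPM in contralateral libraries, with Chil3 at 0 in each group, and their part was not tested.

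Of the 7 proteins that bind or shed Gpnmb, 2 rose and 1 fell after cuprizone, 2 fell in 5xFAD, and 2 rose and 1 fell in the P28 stroke. In glioma, EAE and the P6 stroke limma called 0, with 1, 1 and 2 at an unadjusted p under 0.05. After rescaling 2 rose after cuprizone, 1 in glioma (Sdc4, 1.09) and 3 in the P28 stroke (Cd44, Itga5 at 0.76 and Sdc4), and 0 fell. Cd44, a receptor for Gpnmb and osteopontin, averaged 16.01 ± 2.20 TPM in GFP+ and 1.86 ± 0.480 TPM in GFP- libraries after cuprizone (SD, n = 3 each; 2.58, limma adjusted p = 0.00732). In the P28 stroke it averaged 10.4 ± 2.23 TPM in GFP+ and 1.57 ± 0.513 TPM in GFP- libraries (SD, n = 4 each; 2.15, limma adjusted p = 0.000167). The integrin subunit Itga5 rose after cuprizone (1.297) and Sdc4, a heparan sulfate proteoglycan, in the P28 stroke (0.45). The sheddase Adam10 fell after cuprizone (-0.54), in 5xFAD (-0.62) and in the P28 stroke (-0.46), with no call after rescaling (-0.28 to -0.13), and Adam17 fell in 5xFAD (-0.76; -0.42 and not called after rescaling).

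The same 105 genes were counted against the controls. The shares of all genes in this paragraph are rescaled, and those as deposited were given with the member counts. In glioma the shares as deposited were 17.7% higher and 45.9% lower in GFP+ cells, and 16% and 36.8% in GFP- cells. In GFP+ cells 17 of 86 rose and 16 fell after cuprizone (27 and 5 rescaled, against 6.85% and 3.83% of all genes). It was 25 and 42 of 88 in glioma (41 and 14 rescaled, against 28.4% and 23.4%), 21 and 11 of 85 in EAE (31 and 4 rescaled, against 10.4% and 6.66%) and 19 and 26 of 85 in 5xFAD (45 and 11 rescaled, against 12.4% and 8.33%). Against the contralateral side it was 5 and 1 of 84 in the P6 stroke (7 and 0 rescaled, against 0.833% and 0.275%) and 28 and 17 of 84 in the P28 stroke (45 and 5 rescaled, against 12.9% and 8.63%). In GFP- cells 2 of 86 rose after cuprizone, Cd63 (0.63) and Ctsb (0.39), and the same count after rescaling (against 0.156% and 0.00779%). It was 21 and 38 of 88 in glioma (31 and 15 rescaled, against 22.6% and 15.3%), 11 and 11 of 85 in EAE (27 and 3 rescaled, against 9.27% and 4.5%) and 14 and 13 of 85 in 5xFAD (23 and 3 rescaled, against 5.65% and 1.65%). In the GFP- cells of the strokes limma called 0 of 84 in each, before and after rescaling (0.0612% and 0.0764% of all genes rescaled at P6, 0.133% and 0.014% at P28). At an unadjusted p under 0.05 there were 4 in the P6 and 16 in the P28 stroke.

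**Figure D4:**
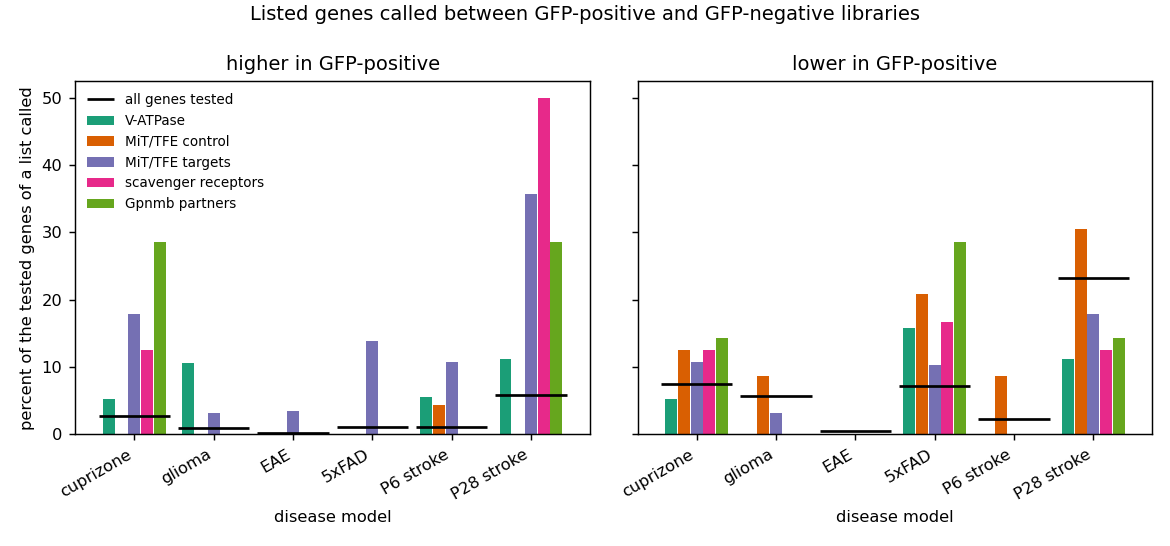
Share of the tested genes of each of the 5 lists called higher or lower in GFP+ against GFP- libraries, in percent, by model, as deposited. The black line gives the share over all tested genes. After the P28 stroke 10 of 28 lysosomal and osteoclast targets rose, and in EAE 1 gene of the 5 lists was called.

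Likeness of pattern was described by Pearson's r over the 67 libraries, each centred on the mean of its table, against the 9938 genes ranked. Values were as deposited, and r was not computed after rescaling. Since libraries of a group share their disease and their gate, r describes groups rather than 67 independent points. The 5 genes most like Gpnmb were Fabp5, a fatty acid carrier (r = 0.95), Hpse, which cuts heparan sulfate (0.94), Apoe (0.94), Npc2, a cholesterol carrier of lysosomes (0.93), and Mif (0.93). Centred on the groups in place of the tables, these r were -0.04 to 0.27. The genes most like Colec12 were Gpnmb (0.84), Apoc4 (0.84), Hpse (0.80), Pld3 (0.78) and Igf1 (0.78), and those most like Atp6v0d2 were Lrpap1 (0.75), Apoc4 (0.74), Rap2b (0.73), Spp1 (0.73) and Igf1 (0.71). Within groups the r of Colec12 with Gpnmb was 0.37 and with Apoc4 0.44.

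Mitf was less like any other gene, with Gpr137b-ps (0.60), Gpr137b (0.55), which codes for a lysosomal membrane protein, Nrp1 (0.55), Ctsa (0.54) and Cyb5r1 (0.53). Gpr137b-ps is a pseudogene copy of Gpr137b, and the authors' counting could split reads between them. Tfec was most like Tgfbi (0.73), Tagln2 (0.72), Glrx (0.71), Pgap2 (0.70) and Actr3 (0.69). Tfeb was most like Zfp120 (0.78), Tmem170b (0.78), Dnm2 (0.76), Slc25a17 (0.76) and Il13ra1 (0.76), and Tfe3 most like Rps6ka1 (0.93), Cmtm6 (0.92), Mtus1 (0.92), Abl1 (0.91) and Arhgap45 (0.91). Between members, r was 0.84 for Gpnmb and Colec12, 0.71 for Gpnmb and Atp6v0d2, 0.71 for Tfeb and Tfe3, -0.85 for Gpnmb and Tfe3, -0.62 for Gpnmb and Tfeb and 0.21 for Gpnmb and Mitf. Within groups the same pairs were at 0.37, 0.26, 0.18, 0.02, -0.02 and 0.15, so most of each r came from differences between groups. Many calls of Tfe3 and Tfeb were lost after rescaling. The part of the shift over all genes in their r was not tested.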

How the data were processed

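Bulk RNA-seq of sorted microglia was given as 6 tables of TPM per gene and library, 1 for each model. Per the submitters' processing notes, cutadapt 2.10, STAR 2.7.5c, RSEM 1.3.3 and edgeR 3.32.0 were used with GRCm38 or mm10, and the deposited TPM values are used as the authors made them. TPM keeps no depth, so the depth of each library is unknown. Of 71 samples, 67 bulk libraries were used, and 4 hashed single-cell pools were not analysed here.

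Genes entered the test if the number of libraries with 1 TPM or more reached the size of the smallest group. Groups were compared on log2(TPM + 1) with limma 3.58.1 in R 4.3.3, with a mean-variance trend, the 3 groups of a table in 1 model and Benjamini-Hochberg adjustment over all tested genes. Each table carries its own normalisation, and no test crossed tables. Alternatives were a pseudocount of 0.1, median-of-ratios rescaling, no filter on low values, leaving out each library, a replicate block, a sex term, and 2 other centrings for the likeness. The script was tested on simulated data. The members and gene lists were chosen with earlier results of these data known. Named genes were the 7 members, up to 3 called genes of each list and table with the smallest adjusted p in GFP+ against GFP- cells, and the 5 genes most like each member, without unnamed models, Xist and Y-linked genes. Values of a gene so named are given in each model where it was called. A gene that the rule names is not reported here.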

Additional observations from a re-analysis of the deposited data

Results flagged for a closer look

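Among 74 groups of 4 libraries, 7 had 1 library that stood far from the others by Dixon's criterion. For normally spread values chance alone marks about 1 in 20 groups. A group with all libraries but 1 at 0 is always marked, which holds for Tfec in cuprizone controls and Atp6v0d2 in glioma GFP- libraries. Tfec stood at 2.86 TPM in control library 3 of cuprizone, where the other controls were at 0. It was at 13.7 TPM in GFP- library 4 of the P6 stroke and at 2.5 TPM in GFP+ library 4 of the P28 stroke. Mitf was lowest at 2.36 TPM in GFP- library 4 of 5xFAD and highest at 68.5 TPM in GFP+ library 3 of the P28 stroke. Atp6v0d2 was at 1.61 TPM in GFP- library 2 of glioma, where the other 3 were at 0, and Colec12 was at 3.62 TPM in GFP- library 3 of the P6 stroke.

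In 2 genes the libraries of different models moved in opposite directions against their controls, and the difference between models was not tested. Colec12 in GFP- cells differed from controls by -1.77 after cuprizone, 2.23 in EAE, where the controls were listed at 0, and 1.28 in 5xFAD, and of these the EAE difference alone was called. Mitf in GFP+ cells differed by -0.95 from controls in glioma, 1.01 from controls in EAE and 0.65 from the contralateral side in the P28 stroke, all called as deposited. The glioma call was lost after rescaling (-0.39), and the EAE call without GFP+ library 3, control 2 or control 3.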

How the results depend on the processing

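All 272 GFP+ against GFP- differences of members with 1 library left out kept their size within the spread of libraries. Leaving out 1 library cannot move a difference of means by more than that spread, so nothing is read from it. The replicate block left all 37 differences as they were. Both groups hold the same replicate numbers, so the block could change only the SE and the calls. A pseudocount of 0.1 gave 5.78 and 5.03 for Gpnmb (cuprizone, P28 stroke), 4.25, 2.75 and 4.23 for Colec12 (cuprizone, P6 and P28 stroke), 1.64 and 2.66 for Tfec (cuprizone, EAE) and 3.14 and 5.59 for Atp6v0d2 (glioma, 5xFAD). Rescaling gave 1.35 and 1.10 for Mitf (cuprizone, P28 stroke), -0.25, -0.24, -0.53, 0.15 and -0.19 for Tfe3 (cuprizone, glioma, 5xFAD, P6 and P28 stroke) and -0.58 and -0.15 for Tfeb (5xFAD, P28 stroke). The pseudocount of 0.1 ended the Colec12 calls in glioma and EAE, and the sex term ended the Tfe3 call of cuprizone GFP+ cells against controls.

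For the 105 pathway genes, the 2 called in cuprizone GFP- cells against controls became 1 with a pseudocount of 0.1, 0 without a filter and 1 with the sex term. In GFP+ against GFP- cells, the count without a filter was 0 for EAE, 10 for 5xFAD and 2 for the P6 stroke, where it was also 2 against the contralateral side. Rescaling gave 17 in glioma. With 1 library left out, the counts in GFP+ against GFP- cells ran from 11 to 17 after cuprizone, 3 to 14 in glioma, 0 to 7 in EAE, 8 to 14 for 5xFAD and 1 to 19 for the P6 stroke. They ran from 0 to 2 in cuprizone GFP- cells against controls and from 3 to 14 in P6 GFP+ cells against the contralateral side. The glioma count was 3 without GFP+ library 2 or GFP- library 2, 14 without GFP+ library 1 and 13 without GFP- library 3. The EAE count was 0 without any 1 of the GFP+ libraries and 7 without GFP- library 1. The cuprizone count was 11 without GFP+ library 3, and the 5xFAD count 8, 10 and 11 without GFP- library 4, 3 and 1. The P6 count was 19 without GFP+ library 1 and 1 without GFP+ library 3. The causes were not tested.

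Groups share replicate numbers, and with the replicate block the pathway counts were 10 in glioma, 0 in EAE and 12 in the P6 stroke. The block ended the calls of Colec12 in glioma and Tfeb in 5xFAD and added that of Tfe3 in glioma. Correlations of same-numbered libraries ran from -0.08 to 0.20 and were not over 0.1 for every pair of any comparison, so the block was kept as an alternative, and the labels do not say what a number marks. Over the 3 comparisons of a model, the correlation was highest for the library's own number in 10 of 12 cases at P6. This count was 7 of 12 in glioma and in the P28 stroke, 5 of 9 in EAE, 5 of 12 in 5xFAD and 3 of 9 after cuprizone. At P6 the number also follows sex.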

Other observations

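Among the listed targets known from osteoclasts, 3 are given here that were chosen after their values were seen. Dcstamp, a fusion protein of osteoclasts, ranged from 18.9 to 27.3 TPM in GFP+ and 6.30 to 14.8 TPM in GFP- libraries of 5xFAD and was at most 0.36 TPM in controls. The GFP+ cells differed from GFP- cells by 1.07 (limma adjusted p = 0.0668) and the GFP- cells from controls by 3.36 (limma adjusted p = 1.27e-05). In glioma it ranged from 0.49 to 13.3 TPM in GFP+, 5.44 to 25.3 in GFP- and up to 0.8 TPM in control libraries. Acp5, an acid phosphatase, ranged from 62.4 to 562 TPM in GFP+, 59.7 to 232 in GFP- and 1.44 to 5.86 TPM in control libraries of glioma and reached at most 10.1 TPM elsewhere. Ctsk, the collagen-cutting cathepsin, was at most 2.58 TPM in every library.

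Trpm1, a channel gene under Mitf control in melanocytes, was named after its values were seen. In 5xFAD it was at 19.2, 28.2, 16.3 and 19.5 TPM in GFP+ and at 4.2, 13.7, 9.06 and 6.0 TPM in GFP- libraries, with the controls at 0. GFP+ and GFP- libraries differed by 1.32 (SE 0.37, limma adjusted p = 0.0385) without overlap. In the other 5 tables it was at most 0.93 TPM. It is 1 of 8 listed melanocyte genes, which summed in 5xFAD to 16.9 to 30.95 TPM in GFP+, 5.47 to 14.25 in GFP- and at most 0.25 TPM in control libraries. Trpm1 itself made up most of the sum in every GFP+ and GFP- library. Among the GFP+ libraries Pmel was at 2.77 TPM in library 2 and at 0 in the others. Tyrp1, Slc45a2 and Oca2 were at 0 in every 5xFAD library, and the part of other cells in the Trpm1 values was not tested.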
